A study of Bos taurus with 36 samples.

Results

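Mammary glands that had been milked 4 times daily (4×) through day 21 of lactation were compared within each cow between day 23 and day 40. On those days both sides of the udder were again milked 2×. The arrays were chosen by their labels alone: the 4× side of the udder on day 23 and on day 40. They were paired by their replicate number, which was taken to stand for the cow. This gave 12 of the 36 arrays of the series, 6 for each day, and 24016 probe sets were tested. The cows were multiparous Holsteins. The right side of each udder was milked 4× on days 1 to 21 and the left side 2×, and the labels go on naming the right side by 4 milkings a day on days 23 and 40, although the study's methods put both sides on 2× after day 21. The biopsies were thus taken 2 and 19 days after frequent milking had ended. The fore gland was biopsied on day 23 and the rear gland on days 21 and 40, so day of lactation and gland position cannot be told apart in this comparison. Nor can the earlier biopsy, which the rear gland of day 40 had had on day 21 and the fore gland of day 23 had not. All of the groups were lactating glands of the same cows, and no gland was free of milking.

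A lactating gland is mostly secretory epithelium, which takes up glucose, acetate, amino acids and fatty acids from blood and secretes caseins, whey proteins, lactose and fat. Prolactin and growth hormone maintain that state, insulin and the insulin-like growth factors act on survival and nutrient use, and milk left in the gland acts back on the epithelium locally. Enzymes that switch fuel use, early response transcription factors and acute phase proteins are known to move when milk removal changes.

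The tissue label was checked against the milk proteins. CSN2, the gene of β-casein, had the highest value of any probe set on each of the 12 arrays, with log2 values from 14.95 to 15.07. The values of PAEP (β-lactoglobulin) and LALBA (α-lactalbumin, a subunit of lactose synthase) were at least 14.59 and 14.38, and those of GLYCAM1 and CSN3 (κ-casein) at least 14.14 and 14.04. For CSN1S2 and CSN1S1, the αs-caseins, the lowest values were 13.82 and 13.15. All 7 measured genes were thus among the brightest probe sets. Medians of the 12 arrays lay between 6.06 and 6.15, and the arrays correlated at 0.975 to 0.992.

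No probe set of the 4× glands passed an adjusted p of 0.05 between day 23 and day 40, and among those with a small unadjusted p more had lower than higher values on day 40. Over all genes the values were even, with 48.5% of genes lower on day 40. The smallest adjusted p from limma was 0.192. At an unadjusted p under 0.01 there were 371 probe sets (1.54% of those tested), 282 of them lower on day 40 (1.17%) and 89 higher (0.371%). At an unadjusted p under 0.05 there were 1642 (6.84%), with 1016 lower (4.23%) and 626 higher (2.61%). A linear model without moderation also called 0 at the adjusted threshold, and 271 at an unadjusted p under 0.01, of which 44.6% were higher. After scaling to 5 reference genes 224 probe sets were past that p and 12.9% were higher. Most changes were small: the median absolute change was 0.0779 log2 units, 80 probe sets had a mean change of at least 0.5, and 64 of those 80 were lower on day 40. Single cows weighed heavily, since the count of 371 became 197 without cow 5 and 216 without cow 1, and 595 without cow 2 and 570 without cow 3.

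**Figure D1:**
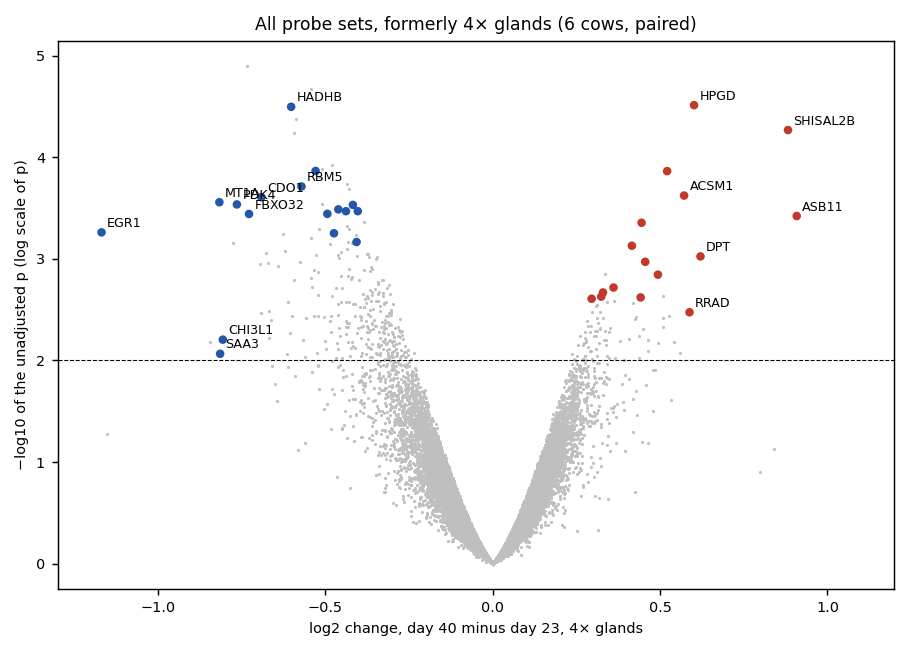
Each point is a probe set of the 4× glands, with the log2 change from day 23 to day 40 on the x axis and −log10 of the unadjusted limma p on the y axis. The dashed line marks an unadjusted p of 0.01, and colored points are the genes named by their p or size. Of the points above the line, 282 lie left of 0 and 89 right of it.

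Genes of fuel use and nutrient sensing were among the clearest with lower values on day 40. PDK4 is the kinase that closes pyruvate dehydrogenase, and so turns cells from glucose to fatty acids as fuel. Its values on day 23 were 7.35 to 8.86 with a median of 7.84, and on day 40 6.48 to 8.19 with a median of 6.85. The value was lower on day 40 in 5 of 6 cows, cow 6 being the exception, and the ranges of the days overlapped. The log2 change was −0.76 (SE 0.16), and day 23 was 1.70-fold above day 40, with an adjusted p = 0.335 from limma over all probe sets. Its other 2 probe sets gave −0.54 and −0.59. Without cow 6, PDK4 had a change of −0.97 and an adjusted p = 0.0231 from limma, and it was the only probe set past 0.05 in any of the fits that left out a cow. Without each of the other 5 cows its adjusted p from limma was 0.296 to 0.902.

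HADHB, the β subunit of the mitochondrial trifunctional protein of fatty acid oxidation, had values of 7.76 to 8.36 on day 23 (median 8.08) and 7.17 to 7.71 on day 40 (median 7.54). All 6 cows were lower on day 40 and the groups did not overlap. The change was −0.60 (SE 0.10), with an adjusted p = 0.192 from limma. FBXO32, the F-box protein of muscle atrophy that marks proteins for the proteasome, ran from 8.73 to 10.18 on day 23 (median 9.26) and from 7.75 to 9.42 on day 40 (median 8.55). Cow 6 again was the only one with a higher value on day 40. The change was −0.73 (SE 0.15), and a second probe set gave −0.66.

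SESN1, a sestrin that restrains mTORC1 when nutrients are short, had values of 7.12 to 9.45 on day 23 (median 7.59) and 6.72 to 8.32 on day 40 (median 6.97). The change was −0.66 (SE 0.22), and cow 6 was once more the exception. Its 2 other probe sets had a mean log2 value under 4 over all arrays and changed by −0.075 and −0.049. Among 18 measured genes of energy sensing and mTORC1, an unadjusted p under 0.05 was reached by 4 with lower and 1 with higher values. Over all 9155 genes, with 1 probe set each, 4.42% were lower and 2.34% higher at that p. The others of the 4 were PDK4, TSC1 (−0.36, a brake on mTORC1) and RPS6KB1 (−0.27, the S6 kinase that mTORC1 drives), and the higher one was DDIT4L (0.30). These members included both brakes and an effector of mTORC1. The median of the list was −0.020, against 0.0044 over all genes. The shares of 4.42% lower and 2.34% higher, 6.76% in either direction, are the background for each list count at an unadjusted p under 0.05 below.

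**Figure D2:**
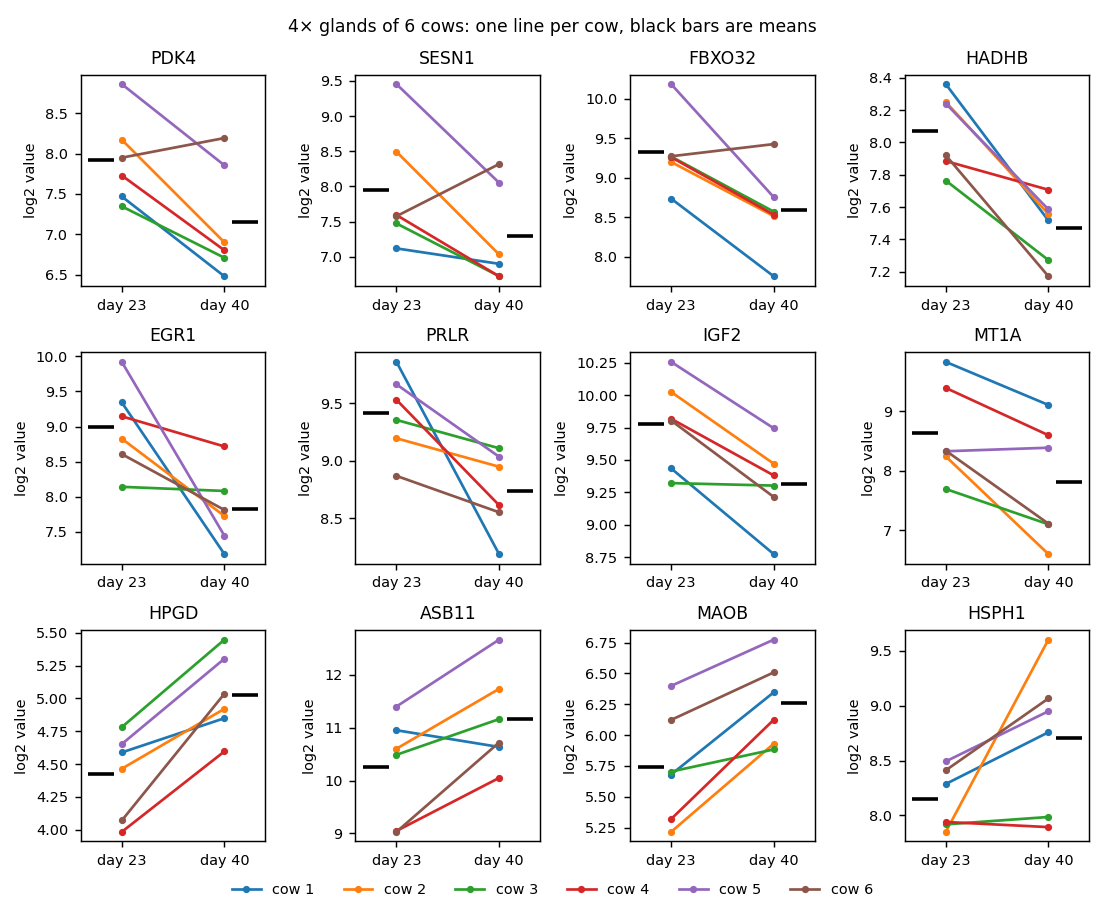
Log2 values of 12 genes in the 4× gland on day 23 and day 40, with a line for each cow and a black bar at the mean of each day. For PDK4, SESN1 and FBXO32 the line of cow 6 runs against the other 5, whereas HADHB, EGR1, PRLR and IGF2 were lower and HPGD and MAOB higher on day 40 in all 6 cows.

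Of the receptors of hormones that maintain lactation, those of prolactin and insulin had lower values on day 40. PRLR, the prolactin receptor, had values of 8.87 to 9.86 on day 23 (median 9.44) and 8.19 to 9.11 on day 40 (median 8.78). It was lower on day 40 in 6 of 6 cows, by a mean of −0.67 (SE 0.16, adjusted p = 0.439 from limma), and the ranges overlapped slightly. PRLR was the only one of 12 measured genes of the prolactin and growth hormone pathway to STAT5 past an unadjusted p of 0.05, and the median of that list was 0.026. Fewer cells of a type and less RNA per cell cannot be told apart in tissue RNA, here and for every gene below.

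IGF2, a growth factor of the insulin family, had values of 9.32 to 10.26 on day 23 (median 9.81) and 8.77 to 9.74 on day 40 (median 9.34). It was lower in all 6 cows, with −0.019 in cow 3 and −0.44 to −0.66 in the others, and a mean change of −0.46 (SE 0.10, adjusted p = 0.335 from limma). A second bright probe set gave −0.45, whereas 2 dimmer ones gave 0.16 and 0.17. INSR, the insulin receptor, ran from 5.79 to 6.95 on day 23 (median 6.59) and from 5.62 to 6.46 on day 40 (median 5.94), a change of −0.45 (SE 0.11) with a lower value in 6 of 6 cows. Of the 4 other INSR probe sets, 1 gave −0.30 and 3 lay between −0.031 and 0.20. IGFBP3 and IGFBP4, which bind the IGFs outside cells, had changes of −0.42 and −0.24. A second probe set of IGFBP3 gave −0.20, lower in 4 of 6 cows. IGF2, INSR, IGFBP3 and IGFBP4 were the 4 of 14 measured members of the IGF axis at an unadjusted p under 0.05, and none was higher. The median of the list was −0.028, so that the rest of the axis lay on both sides of 0.

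Among early response genes EGR1, a zinc finger factor induced within minutes by growth factors and stretch, had the largest mean change of all named genes. Its values were 8.14 to 9.92 on day 23 (median 8.99) and 7.19 to 8.72 on day 40 (median 7.77). It was lower in all 6 cows, with −2.47 in cow 5 and −2.16 in cow 1 but −0.059 in cow 3, and the ranges overlapped. The change was −1.17 (SE 0.26), 2.25-fold higher on day 23, with an adjusted p = 0.385 from limma. A second, dimmer probe set of EGR1 gave 0.16. CCN1, a matrix protein of the same early response, was lower by a mean of −0.54 (SE 0.14), from a median of 7.71 to 7.16. At an unadjusted p under 0.05, 5 of 30 measured early response and mechanosensitive genes had lower values and 0 higher ones. DUSP1 (−0.28), SGK1 (−0.26, and −0.16 without cow 1) and KLF5 (−0.27) were the other 3, and the median of the list was −0.068.

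Genes that glucocorticoids induce had mostly lower values on day 40. MT1A, a metallothionein that binds zinc and copper, had values of 7.69 to 9.82 on day 23 (median 8.33) and 6.60 to 9.10 on day 40 (median 7.75). The value was lower on day 40 in 5 of 6 cows, with a change of 0.059 in cow 5. The mean change was −0.82 (SE 0.17, adjusted p = 0.335 from limma). At an unadjusted p under 0.05 there were 5 of 12 measured members with lower values (background 4.42%) and 0 with higher ones: MT1A, DUSP1, SGK1, ERRFI1 (−0.28, an inhibitor of EGF receptors) and GLUL (−0.22, glutamine synthetase). The median of the list was −0.23, with 10 of 12 members below 0, and that median lay between −0.26 and −0.17 in the 9 alternatives run for list medians. DUSP1 and SGK1 belong to the early response list too, so the lists are not separate evidence.

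Proteins of the acute phase and of complement differed widely between cows. SAA3, a serum amyloid A made by mammary epithelium, had values of 8.61 to 13.19 on day 23 (median 9.89) and 7.77 to 11.24 on day 40 (median 9.76). Cow 1 was highest on both days, and cow 5 was the only one with a higher value on day 40. The mean change was −0.81 (SE 0.26), and −0.59 without cow 1. CHI3L1, a secreted protein that binds chitin, ran from 7.78 to 11.71 on day 23 (median 8.23) and from 6.57 to 9.44 on day 40 (median 8.09). Its mean change was −0.81 (SE 0.25), which was −0.51 without cow 1, the cow with the highest value on both days. LBP, which presents bacterial lipopolysaccharide, went from a median of 9.13 to 8.61 (−0.57, SE 0.17; −0.35 without cow 1), and CLU, the chaperone clusterin, from 10.84 to 10.28 (−0.61, SE 0.20).

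These were the 4 of 21 measured acute phase and antimicrobial genes with a lower value at an unadjusted p under 0.05, and LAP, a β-defensin, was higher (0.29). Their median was −0.077. In the complement list, CFI (−0.54) and C4BPA (−0.48), inhibitors of C3b and C4b, and SERPING1 (−0.20), the inhibitor of C1, were the 3 of 24 at that p, all lower. C4BPA changed by −1.96 in cow 1, and its mean was −0.19 without that cow. UBD, a ubiquitin-like modifier that cytokines induce, was lower in all 6 cows by a mean of −0.53 (SE 0.10), from a median of 7.93 to 7.40.

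Leukocyte markers were given by whole lists. Of 21 measured markers of T and NK cells 3 were lower at an unadjusted p under 0.05 (IL2RG, CD3G and CD2). Dimmer probe sets of CD2 gave 0.012 and 0.050. The median change of the list was −0.072. The mean log2 level of the whole list ran from 6.05 to 6.47 on day 23 and from 5.95 to 6.46 on day 40. Among macrophage markers 1 of 15 was lower (LAPTM5, −0.32), among B and plasma cell markers 1 of 9 (IGHM, −0.28), and among 10 neutrophil markers 0 passed. The mean level of the macrophage markers ran from 6.82 to 7.28 on day 23 and from 6.67 to 7.15 on day 40, and that of the neutrophil markers from 5.24 to 5.76 and from 5.27 to 5.76. Their part in the changes of the acute phase genes was not tested.

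Of genes of ion transport, SLC12A2, the basolateral sodium-potassium-chloride cotransporter, was lower in all 6 cows, from 7.51 to 7.85 on day 23 (median 7.65) to 7.13 to 7.55 on day 40 (median 7.22). Its change was −0.40 (SE 0.095), and a second probe set gave −0.39. SCNN1A, the α subunit of the epithelial sodium channel, changed by −0.42 (SE 0.10), in 5 of 6 cows. Those were the 2 of 23 measured transporters of ions, phosphate and water past an unadjusted p of 0.05, a share near the background of 6.76%. CDO1, which oxidises cysteine toward taurine, had values of 8.11 to 9.94 on day 23 (median 8.38) and 7.48 to 8.47 on day 40 (median 7.70). All 6 cows were lower on day 40, with a mean change of −0.69 (SE 0.14).

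In milk fat synthesis 3 of 18 measured genes of the de novo pathway passed an unadjusted p of 0.05, all with lower values. ACLY, which makes acetyl-CoA from citrate, had values of 8.59 to 8.80 on day 23 (median 8.67) and 8.25 to 8.56 on day 40 (median 8.34). The groups did not overlap, and the change was −0.31 (SE 0.085, adjusted p = 0.554 from limma). ACSS1, a mitochondrial acetyl-CoA synthetase that burns acetate, changed by −0.31, and ELOVL5, a fatty acid elongase, by −0.26, both in 6 of 6 cows. The median of the 18 genes was 8.3e-05, so the remaining genes of the pathway were spread about 0. In the triglyceride list AGPAT2 was higher (0.25) and AGPAT5 and LPIN1 lower (−0.20 and −0.36), and in fatty acid uptake SLC27A2 was higher (0.18) and SLC27A6 and ACSL3 lower (−0.40 and −0.28). Without cow 5 SLC27A6 was at −0.23, and without cow 6 LPIN1 was at −0.54. Dimmer probe sets of ACSL3 gave −0.13 and 0.028.

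The named genes with lower values further included RBM5, a splicing regulator (−0.57, SE 0.11), INTS7, a subunit of the Integrator complex (−0.40), and CUX1, a homeodomain factor (−0.44). The brightest probe set of RBM5 gave −0.12 and another −0.11, and a brighter one of CUX1 gave 0.061. ARHGAP26 changed by −0.42, FGL1, a fibrinogen-like secreted protein, by −0.47, and NREP by −0.49, each in 6 of 6 cows. XIST, the RNA of the inactive X chromosome, changed by −0.41 in 6 of 6 cows, whereas 5 other probe sets gave −0.28, −0.18, −0.15, 0.065 and 0.19. For RBM5 cow 2 was the exception.

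Among the genes with higher values on day 40, HPGD, which inactivates prostaglandins, had the smallest p. Its values were 3.98 to 4.78 on day 23 (median 4.53) and 4.60 to 5.45 on day 40 (median 4.98). They were higher in all 6 cows, and only the upper end of day 23 and the lower end of day 40 overlapped. The change was 0.60 (SE 0.096, adjusted p = 0.192 from limma), at values near the background of the array, and a second, brighter probe set gave 0.37. ASB11, a substrate receptor of ubiquitin ligases, was bright. Its values ran from 9.03 to 11.40 on day 23 (median 10.54) and from 10.05 to 12.66 on day 40 (median 10.94), with a change of 0.91 (SE 0.19) that cow 1 did not share.

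MAOB, a mitochondrial enzyme that oxidises monoamines, went from a median of 5.69 (5.21 to 6.40) to 6.24 (5.88 to 6.77), higher in 6 of 6 cows by a mean of 0.52 (SE 0.097). Its other probe set gave 0.17. ACSM1, which activates medium-chain fatty acids, changed by 0.57 (SE 0.11) and SHISAL2B by 0.88 (SE 0.15), both in 6 of 6 cows. DPT and PRELP, small proteins of the extracellular matrix, changed by 0.62 and 0.44, and MYOC, secreted myocilin, by 0.44. RRAD, a Ras-like GTPase, was higher in 5 of 6 cows (0.59), and COLEC12, a scavenger receptor, in 6 (0.49).

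The rest of the named genes with higher values had smaller changes. VEGFD, a growth factor of lymphatic vessels, ran from 6.52 to 6.73 on day 23 and from 6.82 to 7.05 on day 40 without overlap, a change of 0.30 (SE 0.079). CD5L did not overlap either, but its values of 3.78 to 4.42 were near the background. So were those of SLC8A1, a sodium-calcium exchanger (0.42), FZD10, a Wnt receptor (0.33), and TOMM34 (0.36), and brighter probe sets of SLC8A1 and TOMM34 gave 0.031 and 0.13. Of 20 genes named by p, size or difference that had a further probe set above the dim limit of 5, 4 had at least 1 of the opposite sign. In 10 of the 20, at least 1 changed by under 0.5 times the named change or the opposite way. For 9 of them a brighter probe set than the named one existed. MYBPC1, a myosin-binding protein, was higher by 0.46 in 5 of 6 cows. It and ACTN2 (0.25) were the 2 of 15 measured skeletal muscle markers past an unadjusted p of 0.05. The median of that list was 0.043, with 12 members above 0 and 3 below. Among the latter, MSTN (myostatin) changed by −0.32, lower in 4 of 6 cows. Its other probe set gave −0.49, lower in 6 of 6 cows.

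Some cytosolic heat shock proteins had higher values on day 40, with no adjusted call. HSPH1, a large chaperone of the HSP110 family, had values of 7.85 to 8.49 on day 23 (median 8.11) and 7.89 to 9.60 on day 40 (median 8.85). It was higher in 5 of 6 cows, with a change of 0.56 (SE 0.18), and cows 3 and 4 stayed within the range of day 23. The change was 1.75 in cow 2 and 0.32 on average without it. DNAJB1, an HSP40 co-chaperone, was higher in all 6 cows (0.32, SE 0.098), and HSPA8 (0.31), HSPA1A (0.28) and DNAJA1 (0.26) in 5 each, HSPA8 by 0.16 without cow 2. These were the 5 of 17 measured members past an unadjusted p of 0.05, all with higher values, with a median of 0.11 over the list. In the 2× glands the same contrast gave 10 of 17 higher, where the background of all genes was 3.80%, and a median of 0.46. Of the difference between the glands, 4 of the 17 were at an unadjusted p under 0.05, all toward a larger increase in the 2× glands.

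Lists for the machinery of milk synthesis held few or no genes past an unadjusted p of 0.05. Over the 7 milk protein genes the median change was 0.010, and the changes ran from −0.011 to 0.10. Of 66 cytosolic ribosomal proteins, 77 subunits of oxidative phosphorylation, 32 proteasome subunits and 45 genes of ER translocation and vesicle coats, 0 passed an unadjusted p of 0.05 in either direction. Their medians were 0.013, 0.048, −0.030 and 0.0060. Among 67 mitochondrial ribosomal proteins 1 was higher (MRPS34, 0.19), and among 25 genes of the unfolded protein response and 11 of milk fat globule secretion 0 passed. The milk proteins lay at the top of the array's range. CSN2 had 1 identical value, 15.04, on 9 of the 12 arrays (to within 1e-04), and its change was 0 in 4 of 6 cows. The common distribution set by normalization fixes such values, so the milk protein changes do not show whether their RNA changed.

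Other lists held few genes past an unadjusted p of 0.05. In signalling to STAT3 and involution CLU, PLAT (−0.23) and IL6R (−0.26) were lower and LIF (0.23) higher among 20 measured, and among 23 genes of TGF-β signalling FST, which binds activin, was higher (0.34). PTHLH (0.31) and ORAI1 (0.24), of calcium supply to milk, were the 2 of 15 higher ones. Of 37 cell cycle and replication genes MCM4, TYMS and MCM7 had lower values (−0.25, −0.21 and −0.22). The antigen presentation list held TAP1 and TAP2 (−0.25 and −0.30) of 22, the lysosomal list PSAP and CTSA (−0.22 and −0.18) of 17, and the iron list HMOX1 (−0.24) of 12, all lower. Medians of those lists were −0.12, −0.11 and −0.081 in turn, with 18, 14 and 9 members below 0. CXCL10 (−0.30) was lower in both the interferon and chemokine lists, with IFI44 (0.25) of 27 and CCL21 (0.27) of 23 higher. HK1, a hexokinase (−0.29), was the only 1 of 11 lactose and glucose genes, and PLAT the only 1 of 22 metalloproteinases and inhibitors. ELF3, an epithelial factor, was higher (0.30) among 12 luminal progenitor and ductal genes. The mean changes of ELF3, HMOX1, ORAI1, TAP2, MCM4 and MCM7 became 0.19, −0.16, 0.16, −0.20, −0.16 and −0.14 without cows 3, 1, 2, 1, 6 and 5 in turn, and that of KRT5, a basal keratin, −0.44 without cow 4. Cholesterol synthesis (18 measured), amino acid transport (16) and clock genes (7) had 0.

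Structural and stromal lists were mixed. In the epithelial keratin and junction list KRT15 (−0.37), CLDN1 (−0.30) and KRT19 (−0.26) were lower and CLDN10 (0.26), CLDN7 (0.21) and CLDN4 (0.20) higher among 18 measured. In the 35 fibroblast and matrix genes COL4A1, a chain of basement membrane collagen, was lower in all 6 cows (−0.41, and −0.26 without cow 1), as were COL15A1 and THY1 in 4, whereas MFAP5 (0.43, and 0.23 without cow 4) and LOX (0.19) were higher. Of 14 myoepithelial and smooth muscle markers ACTA2 (−0.34) and KRT5 (−0.29) were lower and DES (0.27) higher. Endothelial, adipocyte, red blood cell and nerve markers had 0 members past an unadjusted p of 0.05 in 18, 12, 6 and 6 measured genes.

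**Figure D3:**
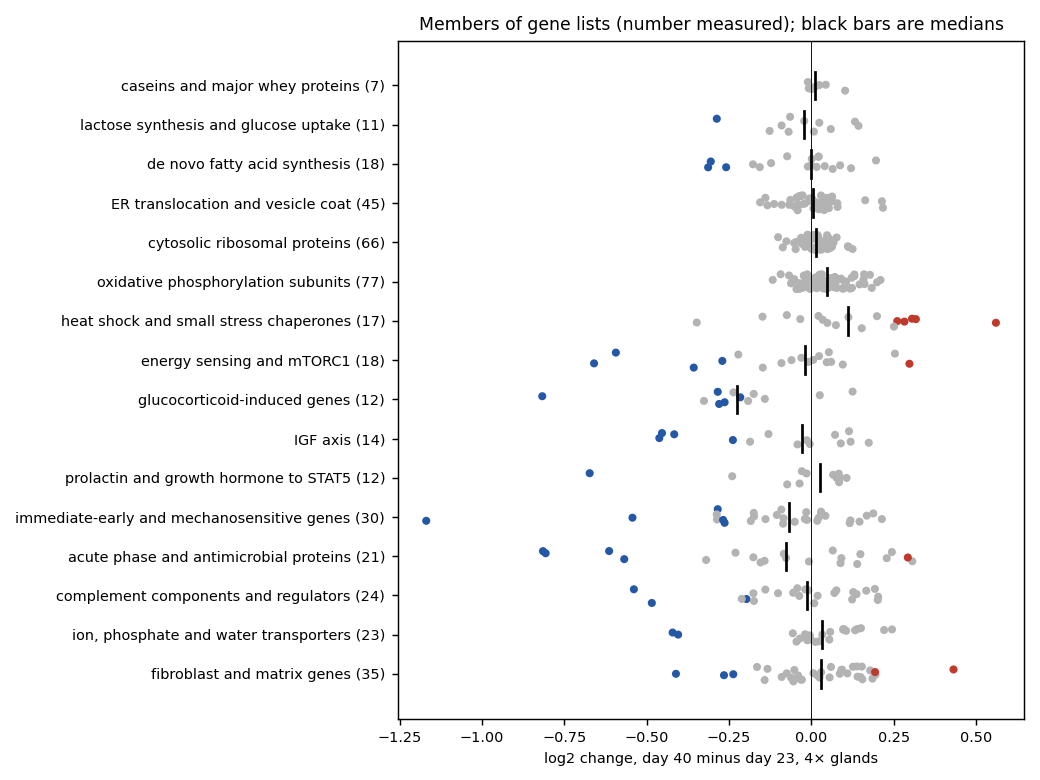
Each point is a gene (1 probe set per gene) and its log2 change from day 23 to day 40 in the 4× glands, in 16 lists whose measured size is in parentheses. Blue points were lower and red points higher at an unadjusted p under 0.05, grey points did not pass, and black bars mark medians: −0.23 for glucocorticoid-induced genes, 0.11 for heat shock and 0.010 for milk proteins.

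Whether a change was particular to the formerly 4× glands was tested on the difference between their change and the change on the 2× side in each cow, which shares both day and gland position. No probe set passed an adjusted p of 0.05 in limma (smallest 0.440). There were 432 at an unadjusted p under 0.01 (1.80%) and 2711 under 0.05 (11.3%), and a linear model without moderation called 0 at the adjusted threshold and 248 at an unadjusted p under 0.01, 65.3% of them positive. The count of 432 became 133 without cow 1 and 171 and 194 without cows 6 and 3, and 1064 and 676 without cows 2 and 4. Of the 432, 35.2% were positive, and 12.9% of 326 after scaling to reference genes and 18.5% of 471 after centring of arrays. In the 2× glands alone 226 probe sets (0.941%) were at an unadjusted p under 0.01, with 152 higher on day 40 and 74 lower.

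The 2× glands of cows 1, 3 and 6 stood apart in CHI3L1, SAA3 and CFI on day 40. CHI3L1 was 10.72 to 11.92 there and 6.29 to 7.37 in the 2× glands of cows 2, 4 and 5, although on day 23 the same glands had 6.74 to 7.37 and 6.19 to 8.79. SAA3 was 9.96 to 13.28 against 7.78 to 8.78 on day 40, and CFI at least 7.06 against at most 6.01. Over the whole acute phase list the mean level of the 2× gland on day 40 was 8.47 in cow 1 and 8.45 in cow 3. In cow 6 it was 7.80, closer to the 7.49 to 7.64 of cows 2, 4 and 5. Cows 1, 3 and 6 were also high on day 21 in the 2× gland, with CHI3L1 at 8.89 to 13.10 against 6.70 to 7.29. Every difference between the glands includes these arrays. Without cows 1, 3 and 6, a choice made after their values were seen that leaves 3 cows, the count of 432 became 110, and 188 probe sets in place of 226 were at that p in the 2× glands, of which 33.0% were higher in place of 67.3%. The part of the acute phase genes in the differences was not tested.

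PDK4 had the smallest p among the named differences. Its change was −0.76 in the 4× glands and 0.18 in the 2× glands, a difference of −0.94 (SE 0.16) with the same sign in 6 of 6 cows. EGR1 had changes of −1.17 and 0.31 (difference −1.48, SE 0.33), and CDO1 −0.69 and 0.47 (difference −1.16, SE 0.27). Without cows 1, 3 and 6 the differences were −0.60 for PDK4, −0.67 for EGR1 and −0.32 for CDO1, and the 2× glands of the other 3 cows had mean changes of −0.47, −0.67 and −0.61, with the sign of the 4× glands. The 2× change of CDO1 was 1.05, 1.42 and 2.17 in cows 1, 3 and 6 and −0.63 to −0.59 in the others. THBS1, a matrix protein that activates TGF-β, had −0.56 and 0.22, and a brighter probe set changed by −0.59 in the 4× glands. Its brightest probe set changed by −0.016 and another bright one by −0.0063 in those glands. KRT15, a keratin, had −0.37 and 0.41. NEDD4L, a ubiquitin ligase that removes the epithelial sodium channel, had −0.34 and 0.27, FBXL4 −0.38 and 0.36, and NSMCE4A, a subunit of the SMC5/6 complex, −0.22 and 0.45. The 2× values again came from cows 1, 3 and 6, without which the 2× changes were −0.31 for NEDD4L, −0.096 for FBXL4, −0.039 for NSMCE4A and −0.11 for KRT15. The 4× change of NEDD4L was lower in 4 of 6 cows, −0.18 without cow 5 and −0.52 without cow 3. For RFC5, a subunit of the clamp loader of DNA replication, the 4× gland was lower on day 40 in 6 of 6 cows (−0.25) and the 2× gland higher in 6 of 6 (0.26).

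In the other direction HPGD had changes of 0.60 in the 4× and −0.10 in the 2× glands, a difference of 0.70 (SE 0.15). G0S2, an inhibitor of triglyceride lipase, had 0.54 and −0.04, SLC1A4, a neutral amino acid transporter, 0.27 and −0.32, and TRIB3, a pseudokinase of amino acid shortage, 0.26 and −0.25. The 4× change of TRIB3 was higher in 3 of 6 cows, 0.067 without cow 2, 0.15 without cow 1 and 0.46 without cow 4, that of SLC1A4 was 0.16 without cow 5, and the 2× changes of HPGD and G0S2 were 0.22 and 0.14 without cows 1, 3 and 6. For IQGAP3 (0.21 and −0.40, the first 0.14 without cow 6), RECQL4, a DNA helicase (0.17 and −0.35), GPATCH2L (0.19 and −0.28) and CCR3, a chemokine receptor near the background (0.26 and −0.22), the difference had the same sign in 6 of 6 cows. The adjusted p from limma was 0.440 for each of these 16 genes and CDO1. The size of the difference moved by over 1.5 times in 8 of the 16 without cows 1, 3 and 6. All 16 kept their sign in that fit of 3 cows, and 15 were at an unadjusted p under 0.05, with 0 probe sets past an adjusted p of 0.05. The 16 were picked for their difference over all 6 cows, which include those left, so keeping sign and p was partly built in. The share of all genes at that p in the fit of 3 cows is not given here, so the 15 have no background. For EGR1 the 3 cows did not agree. Its 4× and 2× changes were −1.10 and −1.60 in cow 2 but −2.47 and −0.46 in cow 5.

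Of the 15 genes named for the smallest p among those lower in the 4× glands, 14 had a difference between the glands at an unadjusted p under 0.05, RBM5 being the exception. Among the 15 higher ones 6 had. Without cows 1, 3 and 6 these counts were 2 and 3, with 3 cows in the fit. Changes of ASB11 (0.91 and 0.92), DPT (0.62 and 0.66), ACSM1 (0.57 and 0.64), MAOB (0.52 and 0.35) and PRELP (0.44 and 0.69) had the same sign in both glands, and the 2× change was at an unadjusted p under 0.05 for each. For ASB11 the difference was −0.01 (SE 0.16). These genes were picked for their change in the 4× glands, which enters the difference too. In the lists, the difference was negative at an unadjusted p under 0.05 for 7 of 12 glucocorticoid-induced genes, 6 of 14 of the IGF axis, 10 of 30 early response genes, 6 of 21 acute phase genes, 6 of 18 keratin and junction genes and 6 of 35 fibroblast and matrix genes, where the background was 6.86%. It was positive for 3 early response genes and 1 fibroblast gene, against 4.17% of all genes. Without cows 1, 3 and 6 the negative count was 1 for the keratin list and 0 for the 5 other lists. In that fit of 3 cows the calls over all probe sets fell too, from 432 to 110 at an unadjusted p under 0.01. Its share of all genes under 0.05 is not given here. These counts, and the 2 and 3 above, thus have no background.

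**Figure D4:**
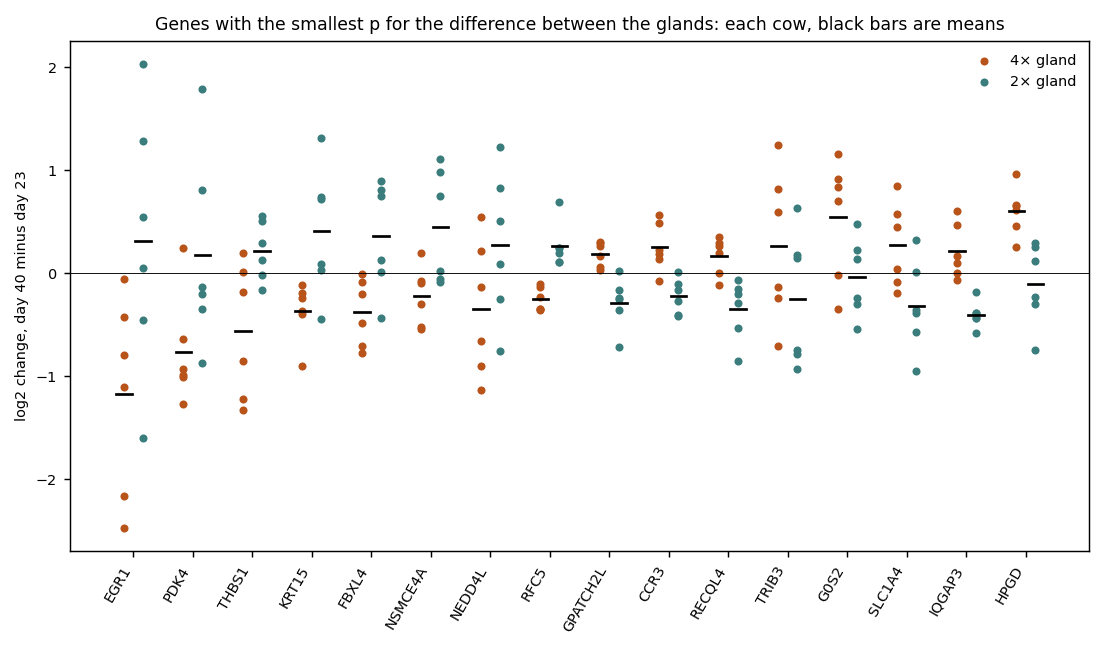
For the 16 genes with the smallest p for the difference, each point is the log2 change of a cow from day 23 to day 40, in the 4× gland (orange) and the 2× gland (green), with black bars at the means. For EGR1 the means are −1.17 and 0.31, and for RFC5 all orange points lie below 0 and all green points above.

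The rear 4× gland of day 21, still under frequent milking, was set beside these values. It shares gland position with day 40, but by day 40 that gland had been biopsied before. This comparison also shares the day 40 arrays with the one above, so the values are given side by side only. EGR1 had values of 7.23 to 8.97 on day 21 with a median of 7.93, against medians of 8.99 on day 23 and 7.77 on day 40. Medians of IGF2 were 9.49, 9.81 and 9.34 in the order of the days, and those of PRLR 9.12, 9.44 and 8.78. For those 3 genes the median was highest on day 23. Medians of PDK4 were 7.81, 7.84 and 6.85, and those of HPGD 4.53, 4.53 and 4.98. For both genes the day 40 median differed from those of the earlier days, while the ranges of days 23 and 40 overlapped.

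Against day 21 the day 40 value was −0.19 (SE 0.28) for EGR1, −0.18 for IGF2, −0.37 for PRLR, −0.66 for PDK4, −0.62 for CDO1, −0.45 for HADHB, 0.42 for HPGD and 0.82 for ASB11. LBP was the only named gene past an adjusted p of 0.05 in that comparison, with a change of −0.55 (adjusted p = 0.0376 from limma), where 25 probe sets passed (0.104%). SAA3, CHI3L1 and CLU were higher on day 40 than on day 21, by 0.41, 0.80 and 0.26 on the log2 scale with no call.

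**Figure D5:**
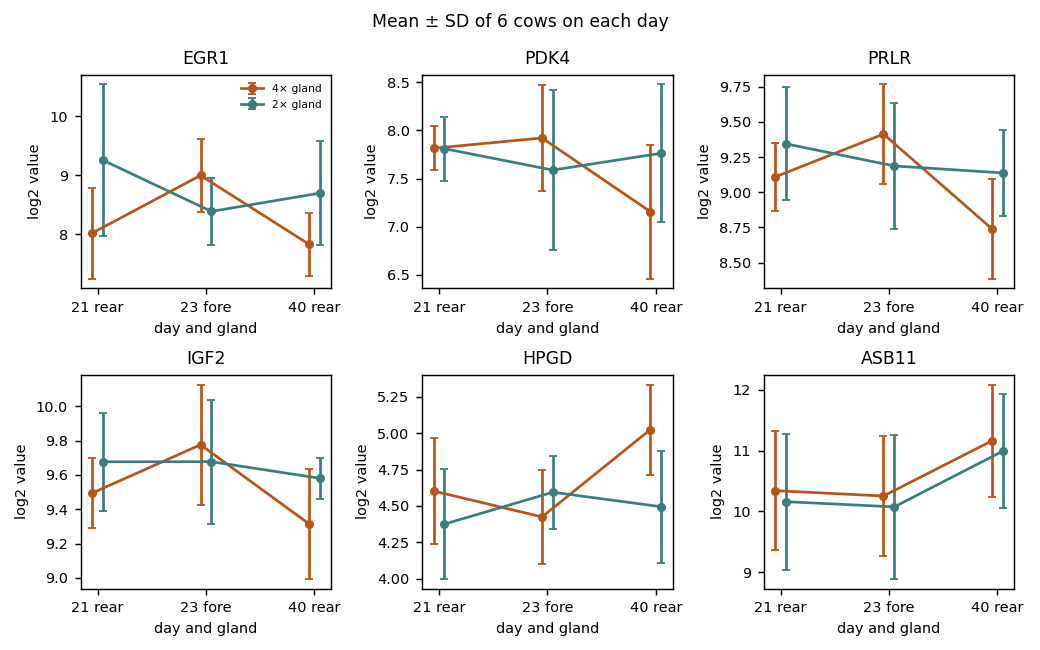
Mean log2 values with SD of 6 cows for 6 genes on day 21 (rear gland), day 23 (fore gland) and day 40 (rear gland), in the 4× (orange) and 2× (green) glands. In the 4× glands EGR1, PRLR and IGF2 were highest on day 23, and ASB11 was higher on day 40 in both glands.

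The cows did not change alike. Over all probe sets the changes of cows 1, 4, 5 and 6 correlated with one another at 0.14 to 0.47, and those of cows 2 and 3 at 0.30, whereas each correlation between a cow of the first 4 and cow 2 or 3 was negative (−0.28 to −0.12). These are correlations across probe sets, which are not independent. The 10 genes whose change varied most between cows, chosen after their values were seen, show both kinds of spread. BHLHE40, a repressor of the circadian clock, was higher on day 40 by 1.60 and 1.33 in cows 2 and 3 and lower by −1.45 and −1.60 in cows 5 and 6, for a mean of −0.019. A probe set of CYBRD1, a ferric reductase, changed by −2.22 in cow 1 and −1.87 in cow 5 but by −0.039 to 0.26 in the others. A brighter probe set of CYBRD1 changed by −1.38 and −2.24 in cows 1 and 5. In cows 3 and 4 the brighter one changed by 0.62 and 0.56, and in cows 2 and 6 by −0.061 and −0.067.

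The day 40 array of cow 4 stood apart in a small group of genes. S100A7, an epidermal antimicrobial protein, was 9.44 there and 4.76 to 5.21 on the 11 other arrays. KRT14, a keratin of basal epithelium, was 8.71 against 5.53 to 6.40, BDA20, the lipocalin allergen of cow dander, 10.51 against 7.33 to 9.01, and the probe set annotated as SRP68 9.45 against 4.31 to 5.27. None of the 4 was at an unadjusted p under 0.05 in the comparison. Without cow 4 there were 340 probe sets at an unadjusted p under 0.01 in place of 371. The part of that array in other results was not tested beyond the fits without cow 4.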

How the data were processed

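Mammary biopsies of 6 cows on 36 GeneChip Bovine Genome Arrays were used, of which the 12 of the 4× glands on days 23 and 40 are the subject here. The authors deposited log2 values from the Robust Multichip Average (background correction, normalization and summarization; version not given in the sources used here), which sets all arrays on a common distribution and can compress large changes. Of 24128 probe sets, 112 controls were left out. Precision is limited by the number of arrays. A mean log2 value under 5, near the background, was found for 7491 probe sets.

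Arrays were paired by the replicate numbers of the labels, each taken to stand for 1 of the 6 cows. The labels themselves name no cow. Deviations of the 2 arrays of a cow from the group means correlated at 0.19 to 0.51 in 6 of 6 cows. Changes were fitted by lmFit and eBayes of limma (version 3.58.1, R 4.3.3), two-sided, with cow as a fixed replicate block, on these 12 arrays only. The difference between glands was tested on 1 value per cow. P-values were adjusted by Benjamini and Hochberg over 24016 probe sets, with a threshold of 0.05, and counts at unadjusted p of 0.01 and 0.05 are given beside.

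Symbols came from the platform annotation: 13292 tested probe sets had 1 symbol, 86 several and 10638 none. The RefSeq table changed 0 symbols. Lists used 1 probe set per gene, the one with the highest mean. All 47 lists and the members compared were chosen with earlier results of these data known, and no list was tested. Named are, among probe sets with 1 symbol and the same sign in at least 5 of 6 cows, the 15 higher and 15 lower with the smallest unadjusted p, the 5 higher and 5 lower with the largest change at an unadjusted p under 0.05, the 8 in each direction with the smallest p for the difference between glands, 3 members of each list described, and all milk proteins. Other members of counts of 5 or fewer, and genes of the widest spread between cows, were named after their values were seen. The script was first tested on simulated data of known changes. Alternatives were fits without a replicate block or with cow as a random block, on all 36 arrays, with array weights, with trend and robust moderation or none, without dim probe sets, with control probe sets, with 1 probe set per gene, after centring or scaling to 5 reference genes, and without each cow in turn, and, chosen after the data were seen, the difference between glands without cows 1, 3 and 6. Milk yields and histology were not analysed here. Python 3.11.15 with pandas 2.3.3 and matplotlib 3.10.9 drew the plots.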

Additional observations from a re-analysis of the deposited data

Results flagged for a closer look

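Of 92 groups of 6 values (46 named genes on 2 days in the 4× glands), 6 held an array far from the other 5, where chance gives about 1 in 20. On day 23, cow 5 had 9.94 for CDO1 where the others had 8.11 to 8.40, and 10.18 for FBXO32 where they had 8.73 to 9.27. Cow 1 had 11.71 for CHI3L1 on that day against 7.78 to 9.11, and cow 6 had 6.91 for THBS1 against 7.27 to 7.49. On day 40, cow 5 had 4.63 for SLC8A1 against 5.01 to 5.11, and cow 2 had 3.76 for CCR3 against 4.08 to 4.27. Without cow 5 the change of CDO1 was −0.54 and that of FBXO32 −0.59. For RFC5 every 4× gland was lower and every 2× gland higher on day 40, with a difference of −0.52 (SE 0.11), which did not pass an adjusted p of 0.05 in limma (0.440).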

How the results depend on the processing

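The direction of all 46 named genes was kept in each of 14 alternatives, and the adjusted threshold was passed by 0 of them except PDK4 without cow 6. Of 423 recomputed list medians, 419 moved by less than their SD over cows. The others were the interferon list without cows 1, 2 or 6 and the lactose list without cow 4. That SD is a wide limit for leaving out 1 of 6 cows, so the 419 say little about stability. The count of 371 of 24016 probe sets for day 40 against day 23 in the 4× glands was 128 with no replicate block. It was 643 with array weights, 224 after scaling to reference genes and 197 to 595 with 1 cow left out. With 1 probe set for each gene it was 134 of 9155, a share near that of the 371 of 24016. At the adjusted threshold 0 to 1 probe sets passed with 1 cow left out. With no replicate block, pairing removed, the difference between glands gave 224 in place of 432. That count was 110 without cows 1, 3 and 6, a choice made after the values were seen, and 248 with no moderation. It was 6 with trend and robust moderation and 133 to 1064 with 1 cow left out. With the 7491 dim probe sets left out it was 285, out of fewer probe sets tested. The 226 of the 2× glands became 81 to 388. On all 36 arrays 46.5% of the calls in the 4× glands were higher, and for the difference 68.3% were positive. The cause of these shifts was not tested, except that fewer probe sets were tested with 1 for each gene or without dim ones. Day, gland position and the earlier biopsy of the rear gland cannot be told apart in any of these fits.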
